A study of Mus musculus with 12 samples.

Results

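The genes described here are 10 genes that read, write or erase N6-methyladenosine (m6A) in RNA: the readers Ythdf1, Ythdf2, Ythdf3, Ythdc1 and Ythdc2, the core writers Mettl3, Mettl14 and Wtap, and the erasers Fto and Alkbh5. They were taken by symbol from a table of 11786 genes, and all 10 were in it. The table holds 8 mouse RNA-seq libraries of bone marrow cells turned into dendritic cells with the cytokine GM-CSF. The 4 groups of 2 libraries were wild-type cells alone, wild-type cells with lysate, cells labelled Ythdf1-/- (here "KO-labelled") alone, and KO-labelled cells with lysate. Lysate stands for culture overnight with dying B16-OVA melanoma cells, a mouse tumour line that carries the model antigen ovalbumin, after which dendritic cells were purified. The sources used here do not give the allele, the strain, the sex and age of the mice or any pooling of animals. They also do not say whether replicate libraries stem from different mice or cultures, and p-values then measure only how far these samples lie apart, which can be technical spread. The 4 immunoprecipitation samples of the series were not analysed here.

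The m6A mark is a methyl group placed on adenosines of messenger RNA in the nucleus. METTL3 is the catalytic subunit of the writer, METTL14 holds the RNA beside it, and WTAP brings the pair to its sites. FTO and ALKBH5 take the methyl group off. Proteins with a YTH domain bind the mark: YTHDF1, YTHDF2 and YTHDF3 in the cytoplasm, where they are linked to translation and decay of the bound RNA, YTHDC1 in the nucleus, where it is linked to splicing and export, and YTHDC2, an RNA helicase best known from the germ line. In dendritic cells YTHDF1 is known for its part in the translation of transcripts for lysosomal proteases, which degrade antigen.

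Levels are the deposited log2 values, read as regularized-log counts, so a difference of 1 is a factor of 2 and changes of genes with few reads are understated. Depth per library is unknown. All 12 dendritic cell markers were in the table, Cd74, the invariant chain of MHC class II, at the top, as were all 7 macrophage markers; of the markers for erythroid cells, T or NK cells, and B cells, 0 of 5 each were in the table used here. Dendritic cell markers moved with both factors. With lysate 0 of 12 were higher, and 7 of 12 were lower in wild-type cells (11.3% of all genes were lower) and 6 of 12 in KO-labelled cells (6.92%). In KO-labelled against wild-type cells 3 of 12 were higher (7.02% of all genes) and 1 lower without lysate, and 7 of 12 higher (7.44%) and 0 lower with lysate, where their median difference was 0.25. Their summed level was 17.83 to 17.94 in wild-type and 17.89 to 17.97 in KO-labelled cells alone, and 17.53 to 17.56 and 17.62 to 17.63 with lysate. Neutrophil markers moved with the genotype label. Their summed level (log2, 9 of 10 markers in the table) was 14.3 to 14.4 in wild-type cells alone and 13.1 in both KO-labelled libraries alone, and with lysate 14.2 to 14.4 against 13.2 to 13.3; 8 of 9 were lower without lysate, where 9.23% of all genes were, and 9 of 9 with it, where 5.45% were. Macrophage markers were lower in KO-labelled cells for 4 of 7 without lysate (9.23% of all genes) and 2 of 7 with it (5.45%). These 2 lists also moved with lysate. Of the 7 macrophage markers, 2 were higher and 2 lower in wild-type cells, and 2 higher and 0 lower in KO-labelled cells. Of the 9 neutrophil markers, 1 was higher and 2 lower with lysate in each genotype. Of all genes, 10.2% were higher and 11.3% lower with lysate in wild-type cells, and 8.28% and 6.92% in KO-labelled cells. Melanocyte markers moved with lysate: 4 of 7 were in the table (Dct, Tyrp1, Pmel, Mitf). All 4 were higher with lysate in wild-type cells (10.2% of all genes) and in KO-labelled cells (8.28%). Their summed level went from 9.98 to 10.1 up to 10.4 to 10.5 in wild-type cells. In KO-labelled cells it went from 9.78 to 9.94 up to 10.37 to 10.43. Mitf, at 9.90 in wild-type cells alone, made up most of this sum. Dct and Tyrp1 stood at 4.75 there and Pmel at 5.49. With lysate Dct, Tyrp1 and Pmel changed by 1.13, 1.04 and 0.71 in wild-type cells, and by 1.31, 1.24 and 0.88 in KO-labelled cells. Averaged over treatments, Mitf was lower in KO-labelled cells (-0.18), while Dct (0.19) and Tyrp1 (0.27) were higher. The part of these cell types in the values below was not tested. In bulk RNA, fewer cells of a type and less RNA per cell cannot be told apart.

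None of the 10 genes passed the test in any of the 7 comparisons (limma over 11785 genes, Benjamini-Hochberg adjusted p under 0.05). With lysate in wild-type cells 0 of 10 were called, where 21.5% of all genes were; with lysate in KO-labelled cells 0 of 10, against 15.2%. Between the genotypes 0 of 10 were called without lysate, against 16.2% of all genes, and 0 of 10 with lysate, against 12.9%. The lysate effect differed between genotypes for 0 of 10, against 0.11%. Averaged over genotypes, 0 of 10 were called for lysate, against 34.7%, and averaged over treatments, 0 of 10 for genotype, against 27.4%. At an unadjusted p under 0.05, 0 of 10 passed in each of the first 5 comparisons, where between 8.32% and 35.4% of all genes did. In the lysate average 1 of 10 passed unadjusted (Mettl3), against 44.6%, and in the genotype average 1 of 10 (Mettl14), against 39.0%. A missed threshold does not show that levels were equal: the 95% confidence intervals of the 10 log2 changes reached from -0.37 to 0.59 for lysate in wild-type cells, -0.39 to 0.40 for lysate in KO-labelled cells, -0.37 to 0.48 between genotypes without lysate and -0.41 to 0.29 with lysate.

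**Figure D1:**
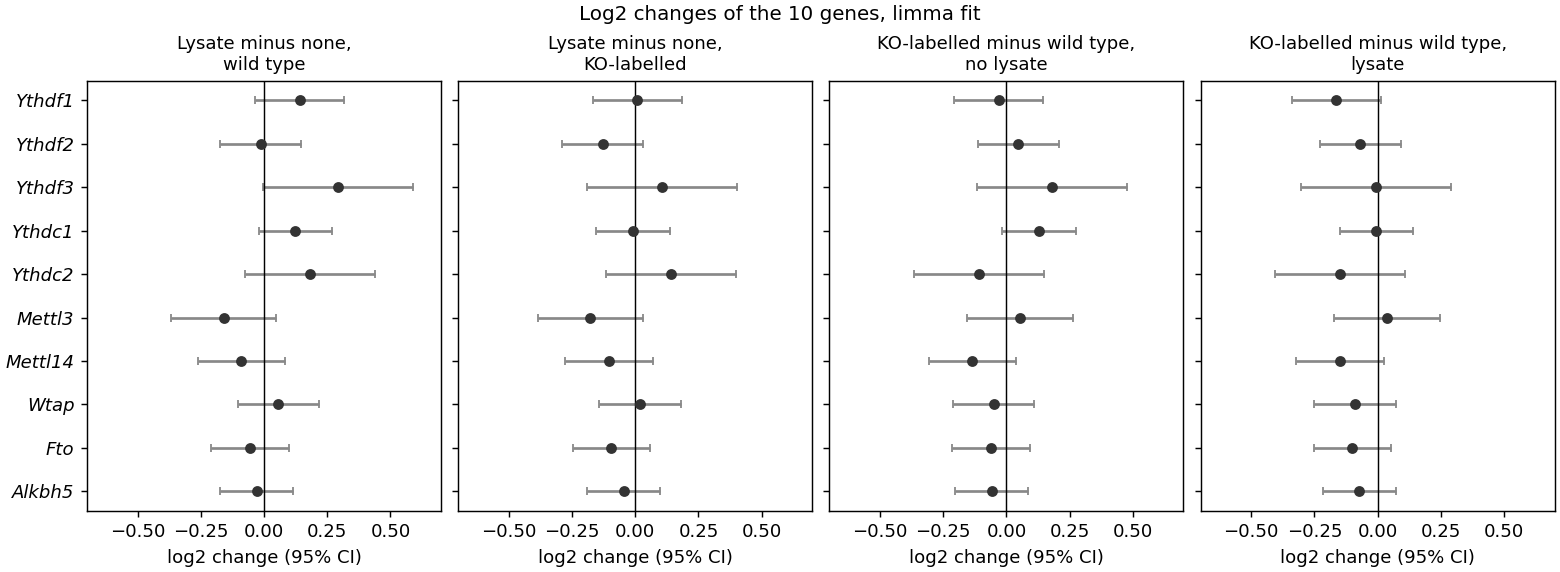
Log2 change of each of the 10 genes (point) with its 95% confidence interval (bar) from the limma fit, in 4 comparisons. Every interval covers 0, and those of Ythdf3 and Ythdc2 are the widest in each panel.

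Ythdf1 is the gene the KO label names, so it is described first. Its log2 level was 9.58 and 9.43 in wild-type cells alone and 9.53 and 9.43 in KO-labelled cells alone. With lysate it was 9.72 and 9.58 in wild-type and 9.51 and 9.46 in KO-labelled cells. Without lysate the genotypes overlapped, and with lysate both KO-labelled libraries lay below both wild-type ones, as was so for 60.6% of all genes in either direction. The KO-labelled level was 97.9% of wild type without lysate (95% confidence interval 86.7% to 110.6%; log2 change -0.030 ± 0.081, SE, limma adjusted p = 0.85). With lysate it was 89.3% (79.1% to 100.8%; -0.16 ± 0.081, adjusted p = 0.202), and averaged over treatments 93.5% (85.8% to 101.9%; -0.097 ± 0.057, adjusted p = 0.235). The transcript of Ythdf1 was thus still counted in the KO-labelled libraries at close to the wild-type level. The labels do not say which part of the gene the allele changes, and a level summed over the gene does not check a label when the reads can come from outside that part. The change with lysate in wild-type cells, 0.14 ± 0.081 (adjusted p = 0.233), did not pass the test, and in KO-labelled cells the change was 0.0083 ± 0.081 (adjusted p = 0.954). The difference of these lysate effects was -0.13 ± 0.11 (adjusted p = 0.796).

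**Figure D2:**
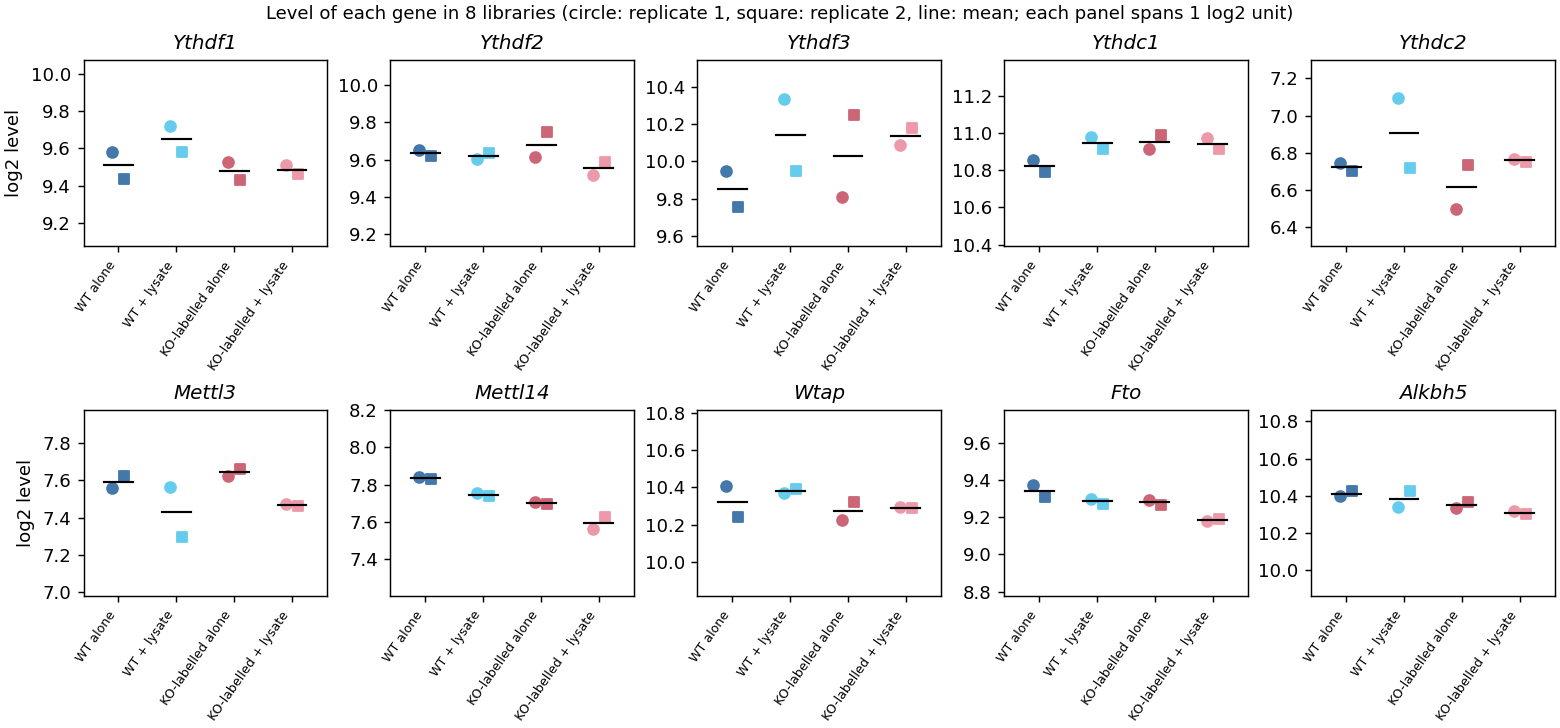
Log2 level of each of the 10 genes in the 8 libraries, with replicate 1 as a circle, replicate 2 as a square and the group mean as a line, by group on the horizontal axis; every panel spans 1 log2 unit. Replicates of Ythdf3 lie up to 0.44 apart, and those of Mettl14 at most 0.064.

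Since Ythdf1 has close paralogues, it was asked whether reads of Ythdf2 or Ythdf3 could be taken for it. The longest exact stretch that the longest coding transcripts of each pair share was searched in GENCODE M21 (GRCm38), and each is printed with 15 flanking bases on either side, the shared stretch in capitals. All lie in the coding part, and positions count from the first base of the transcript.
Ythdf1 with Ythdf2 (948 to 969): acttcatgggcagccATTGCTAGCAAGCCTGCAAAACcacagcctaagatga
Ythdf2 with Ythdf1 (1101 to 1122): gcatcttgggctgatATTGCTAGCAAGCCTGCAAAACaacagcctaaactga
Ythdf1 with Ythdf3 (1422 to 1438): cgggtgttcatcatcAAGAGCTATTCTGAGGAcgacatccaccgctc
Ythdf3 with Ythdf1 (1549 to 1565): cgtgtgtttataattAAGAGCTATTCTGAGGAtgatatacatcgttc
Ythdf2 with Ythdf3 (1198 to 1214): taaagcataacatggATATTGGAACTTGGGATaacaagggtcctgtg
Ythdf3 with Ythdf2 (1109 to 1125): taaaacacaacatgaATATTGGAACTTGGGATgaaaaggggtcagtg
The stretch shared by Ythdf1 and Ythdf2 is 22 bases long, and the other two are 17 bases long. Of the 3149 words of 36 bases in the Ythdf1 transcript, 0 occur in a transcript of another gene on either strand, and likewise 0 of 5067 for Ythdf3 and 0 of 7180 for Ythdc2. Reads of at least that length from these 3 transcripts match no other annotated gene exactly. For Ythdf2, 12.1% of the words of 36 bases also occur in another gene, chiefly the pseudogene Gm6823, and for Wtap 10.3%, chiefly the pseudogene Gm14292. For Ythdc1 the share was 18.6%, with the noncoding gene Gm43055 on the same strand, and for Mettl3 15.1%, with Tox4 on the opposite strand. It was 2.44% for Fto, with an antisense gene, 0.913% for Alkbh5 and 0.503% for Mettl14. The sources used here do not state how the authors' counting treated reads in such stretches or whether it used strand, so those levels are uncertain to that extent.

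Ythdf2, whose protein brings the deadenylase complex to marked RNA, was among the steadier of the readers. It stood at 9.65 and 9.62 in wild-type cells alone and 9.60 and 9.64 with lysate. In KO-labelled cells it stood at 9.61 and 9.75 alone and 9.52 and 9.59 with lysate. The KO-labelled libraries with lysate lay below those without, by 0.13 ± 0.074 on the log2 scale (-0.13, limma adjusted p = 0.268). In wild-type cells the lysate change was -0.013 ± 0.074 (adjusted p = 0.922). The genotype differences were 0.047 ± 0.074 without lysate (adjusted p = 0.734) and -0.068 ± 0.074 with it (adjusted p = 0.581). No rise of Ythdf2 in KO-labelled cells passed the test.

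Ythdf3, whose protein acts with the other two cytoplasmic readers, had the largest fitted lysate change of the 10 genes in wild-type cells and also the widest spread between replicates. Its level was 9.95 and 9.75 in wild-type cells alone and 10.33 and 9.95 with lysate. In KO-labelled cells it was 9.81 and 10.25 alone and 10.09 and 10.18 with lysate. The wild-type libraries with lysate did not fall below those without. Wild-type replicates lay 0.19 apart without lysate and 0.39 apart with it. The lysate change in wild-type cells was 0.29 ± 0.14 (95% interval -0.0057 to 0.59, limma adjusted p = 0.148). This change passed the test when only the 2 wild-type groups were fitted (adjusted p = 0.0401) and when either untreated KO-labelled library was left out (adjusted p = 0.0239 for replicate 1 and 0.024 for replicate 2), the pair of replicates that lie furthest apart. In KO-labelled cells the lysate change was 0.10 ± 0.14 (adjusted p = 0.651), and it was 0.33 without KO-labelled alone replicate 2 (adjusted p = 0.0496) and -0.12 without replicate 1. The genotype difference without lysate was 0.18 ± 0.14 (adjusted p = 0.435), 0.40 without KO-labelled alone replicate 1 (adjusted p = 0.0199) and -0.042 without replicate 2. With lysate the genotypes differed by -0.0073 ± 0.14 (adjusted p = 0.98). The Ythdf3 transcript has the lowest GC content of the 10 (38.4%, against 39.6% to 50.2% for the rest). The part of GC content in the replicate spread was not tested. After each library's trend on transcript GC and length was removed, the replicate gap (replicate 1 minus replicate 2) of Ythdf3 went from -0.44 to -0.20 in KO-labelled cells alone and from 0.19 to 0.00033 in wild-type cells alone. With lysate it went from 0.39 to 0.28 in wild-type cells and from -0.088 to -0.098 in KO-labelled cells. The gap of Ythdf3 was thus smaller in 3 groups and slightly larger in 1. Gaps of other genes moved both ways. That of Wtap, the next lowest in GC content, went from 0.17 to -0.0057 in wild-type cells alone and from -0.096 to 0.12 in KO-labelled cells alone. With lysate it went from -0.024 to -0.086 and from 0.0067 to 0.0053. The gap of Ythdc2 went from 0.043 to -0.089 in wild-type and from -0.24 to -0.086 in KO-labelled cells alone. With lysate it went from 0.38 to 0.28 and from 0.016 to -0.014. The same removal widened the gap of Mettl14 in every group. Alone, that gap went from 0.0063 to 0.18 in KO-labelled cells and from 0.0087 to -0.14 in wild-type cells. With lysate, the Mettl14 gap went from 0.016 to -0.090 in wild-type cells and from -0.064 to -0.092 in KO-labelled cells.

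Ythdc1, the nuclear reader, had the highest level of the 10 genes. It stood at 10.85 and 10.79 in wild-type cells alone and 10.98 and 10.92 with lysate. In KO-labelled cells it stood at 10.91 and 10.99 alone and 10.97 and 10.91 with lysate. The 2 wild-type libraries without lysate were thus the lowest of the 8. The lysate change was 0.12 ± 0.068 in wild-type cells (limma adjusted p = 0.209) and -0.0098 ± 0.068 in KO-labelled cells (adjusted p = 0.935). The difference of these effects, -0.13 ± 0.096, had an adjusted p of 0.752, the lowest of the 10 genes in that comparison. The genotype difference was 0.13 ± 0.068 without lysate (adjusted p = 0.232) and -0.0043 ± 0.068 with it (adjusted p = 0.974). With the GC and length trend removed, the former was 0.14 with an adjusted p of 0.037. In that comparison this setting called 3181 of all genes, against 1915 as deposited.

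Ythdc2, the helicase reader, had the lowest level of the 10. It was 6.75 and 6.70 in wild-type cells alone, 7.10 and 6.72 with lysate, 6.50 and 6.74 in KO-labelled cells alone, and 6.77 and 6.75 with lysate. Wild-type lysate replicate 1 stood above the other 7 libraries. The lysate change was 0.18 ± 0.12 in wild-type cells (limma adjusted p = 0.298), -0.0064 without that library, and 0.14 ± 0.12 in KO-labelled cells (adjusted p = 0.459). Genotypes differed by -0.11 ± 0.12 without lysate (adjusted p = 0.611) and -0.15 ± 0.12 with it (adjusted p = 0.441); the latter was 0.039 without wild-type lysate replicate 1. The order of the genotypes with lysate thus rested on 1 library.

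Among the writers, the catalytic subunit Mettl3 had the lowest adjusted p of the 10 genes for lysate averaged over genotypes. Its level was 7.56 and 7.62 in wild-type cells alone and 7.56 and 7.30 with lysate. In KO-labelled cells it was 7.63 and 7.66 alone and 7.47 and 7.46 with lysate. The KO-labelled groups did not overlap, the wild-type groups shared their upper and lower ends at 7.56. The lysate change was -0.16 ± 0.097 in wild-type cells (limma adjusted p = 0.256), -0.18 ± 0.097 in KO-labelled cells (adjusted p = 0.238) and -0.17 ± 0.068 on average (95% interval -0.32 to -0.022, adjusted p = 0.0711). The average change was -0.24 without wild-type lysate replicate 1 (adjusted p = 0.0222) and -0.17 with the GC and length trend removed (adjusted p = 0.0463). Between genotypes Mettl3 differed by 0.054 ± 0.097 without lysate (adjusted p = 0.768) and 0.037 ± 0.097 with it (adjusted p = 0.835).

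Mettl14, the RNA-binding partner of METTL3, was the only 1 of the 10 genes whose 4 KO-labelled libraries all lay below its 4 wild-type libraries, which was so in one direction or the other for 16.6% of all genes. It stood at 7.84 and 7.83 in wild-type cells alone and 7.75 and 7.74 with lysate. In KO-labelled cells it stood at 7.70 and 7.70 alone and 7.56 and 7.63 with lysate. The replicates lay within 0.064 of each other. The genotype difference was -0.13 ± 0.080 without lysate (limma adjusted p = 0.301), -0.15 ± 0.080 with it (adjusted p = 0.237) and -0.14 ± 0.057 on average (95% interval -0.26 to -0.019, adjusted p = 0.0808). The lysate change was -0.090 ± 0.080 in wild-type and -0.11 ± 0.080 in KO-labelled cells (adjusted p = 0.458 and 0.41). The 0.080 is larger than the gap between these replicates because the fit sets a gene's spread partly from genes of like level. None of these differences passed the test in the fit of all 8 libraries as deposited.

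Wtap, the adaptor of the writer, had the narrowest spread of the writers. Its level was 10.41 and 10.24 in wild-type cells alone, 10.37 and 10.39 with lysate, 10.22 and 10.32 in KO-labelled cells alone, and 10.29 and 10.29 with lysate. The highest and the lowest of the 8 were both untreated libraries. The lysate change was 0.057 ± 0.075 in wild-type cells (limma adjusted p = 0.629) and 0.018 ± 0.075 in KO-labelled cells (adjusted p = 0.892). Both turned negative, to -0.11 and -0.074, with the GC and length trend removed. Between genotypes Wtap differed by -0.050 ± 0.075 without lysate (adjusted p = 0.717) and -0.089 ± 0.075 with it (adjusted p = 0.465).

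The erasers varied little. Fto stood at 9.37 and 9.31 in wild-type cells alone, 9.30 and 9.27 with lysate, 9.29 and 9.27 in KO-labelled cells alone, and 9.18 and 9.19 with lysate. The groups did not overlap in any of the 4 pairwise comparisons, yet the changes were small: -0.055 ± 0.071 and -0.095 ± 0.071 for lysate in wild-type and KO-labelled cells (limma adjusted p = 0.618 and 0.4), and -0.061 ± 0.071 and -0.10 ± 0.071 between genotypes without and with lysate (adjusted p = 0.636 and 0.381). Alkbh5 stood at 10.40 and 10.42 in wild-type cells alone, 10.34 and 10.42 with lysate, 10.34 and 10.37 in KO-labelled cells alone, and 10.32 and 10.30 with lysate. Its lowest 2 values were both from KO-labelled cells with lysate. The lysate changes of Alkbh5 were -0.030 ± 0.067 and -0.045 ± 0.067 (adjusted p = 0.788 and 0.693), and its genotype differences were -0.058 ± 0.067 and -0.073 ± 0.067 (adjusted p = 0.629 and 0.504).

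Groups that do not overlap are common with 2 libraries each. For lysate in wild-type cells 4 of the 10 genes did not overlap, where 60.8% of all genes did not, and in KO-labelled cells 6 of 10, against 59.1%. Between genotypes the counts were 5 of 10 without lysate, against 52.7%, and 6 of 10 with it, against 60.6%. For the lysate average it was 0 of 10, against 20.5%. The genotype differences of Ythdf1, Ythdc2, Mettl14, Wtap, Fto and Alkbh5 were below 0 in both treatments, 6 of 10, where 36.4% of all genes were. Leaving out 1 library brought Ythdf1 up to 0.044 and Wtap up to 0.034 without lysate. It brought Ythdc2 up to 0.0095 without lysate and 0.039 with it. All 10 genes were measured in the same 8 libraries, so their signs are not independent. The difference of the lysate effects was below 0 for all 10 in the fit as deposited, from -0.19 (Ythdf3) to -0.015 (Alkbh5). Of all genes, 49.7% were below 0. None of the 10 passed the test, and with the GC and length trend removed Mettl3 and Wtap were above 0, at 0.026 and 0.039. Leaving out 1 library also brought Ythdf3, Ythdc2, Mettl3, Mettl14, Wtap and Alkbh5 above 0, at most to 0.15 (Ythdc2). The median change of the 10 genes was 0.022 for lysate in wild-type cells (all genes -0.010), -0.027 in KO-labelled cells (all genes -0.0013), -0.040 between genotypes without lysate (all genes 0.0022) and -0.081 with it (all genes -0.0085).

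Most of the 10 genes were steady against the rest of the table. From the lowest to the highest of the 8 libraries, Alkbh5 spanned 0.12 on the log2 scale, a range that only 0.764% of all genes matched or undercut. Wtap spanned 0.18 (4.68%), Fto 0.19 (5.87%), Ythdc1 0.20 (6.92%) and Ythdf2 0.23 (11.9%). Mettl14 spanned 0.28 (22.0%), Ythdf1 0.29 (24.7%) and Mettl3 0.37 (44.0%), all below the median range of 0.39. Ythdf3, at 0.58 (80.8%), and Ythdc2, at 0.60 (82.4%), were the only 2 of the 10 above the upper quartile of 0.53. These shares were not adjusted for the level of the genes.

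**Figure D3:**
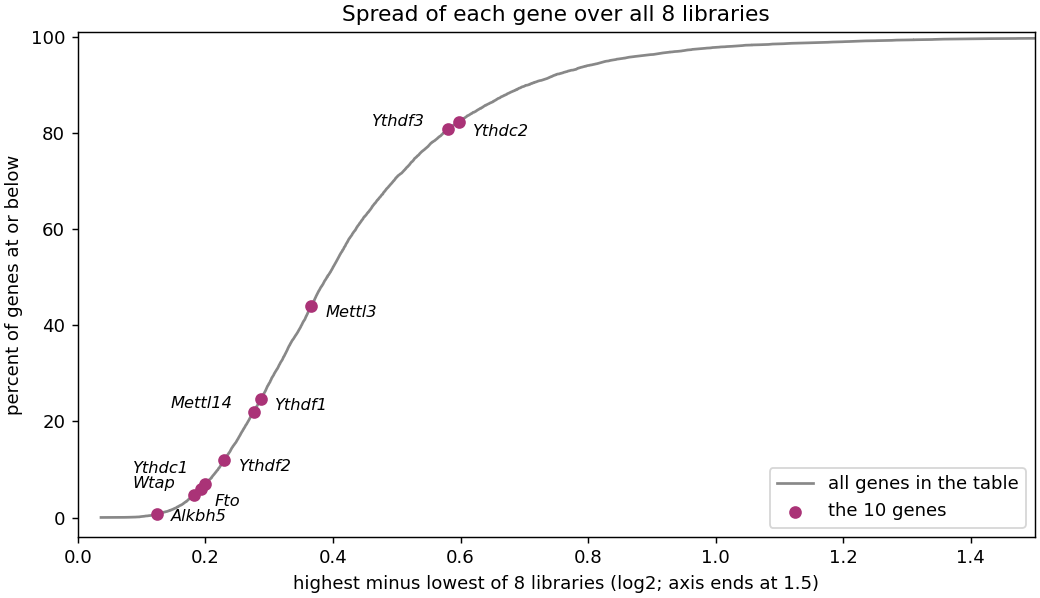
Percent of all genes in the table (vertical axis) whose highest minus lowest log2 level over the 8 libraries is at or below the value on the horizontal axis (line), with the 10 genes as points. Alkbh5 is near the bottom at 0.12, and Ythdf3 and Ythdc2 lie at 0.58 and 0.60.

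To set the genes beside each other, each level was divided by the length of the longest coding transcript, from 2025 bases for Mettl3 to 7215 for Ythdc2. On this log2 level per kilobase scale the order in wild-type cells alone was Ythdc1 9.11, Wtap 8.65, Alkbh5 7.89, Ythdf1 7.84, Ythdf2 7.59, Ythdf3 7.50, Fto 7.10, Mettl3 6.57, Mettl14 4.99 and Ythdc2 3.88. Alkbh5 and Ythdf1 overlapped there, as did Ythdf2 and Ythdf3. With this length, Ythdc1 and Wtap came first and Fto, Mettl3, Mettl14 and Ythdc2 last, in this order in all 4 groups. The middle ranks moved, and overlap was checked only between genes next to each other in rank. Of such neighbours, Ythdf1 and Alkbh5 overlapped in KO-labelled cells both alone and with lysate, and Alkbh5 and Ythdf3 in both lysate groups. In KO-labelled cells alone, Ythdf3 overlapped with both Ythdf1 and Ythdf2. Genes further apart in rank could overlap as well. The order depends on the transcript chosen. With the median length of the coding transcripts, the order in wild-type cells alone was Wtap 9.93, Ythdf2 9.70, Ythdc1 9.13, Ythdf1 8.32, Mettl3 8.22, Alkbh5 7.89, Ythdf3 7.55, Fto 7.47, Mettl14 6.04 and Ythdc2 3.88. Ythdc1 then had rank 3 and Mettl3 rank 5 in all 4 groups, and only Ythdf1, Mettl14 and Ythdc2 had the rank in wild-type cells alone that they had with the longest transcript.

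The genes whose levels were most alike over the 8 libraries are given as a description, with Pearson's r across libraries that share treatment, genotype and library composition. For Ythdf1 they were Mphosph10 (0.957), Gpatch11 (0.935) and Atg3 (0.925), for Ythdf2 Cask (0.956), Sub1 (0.952) and Sf3a3 (0.948), and for Ythdf3 Pcmtd1 (0.970), Kat7 (0.967) and Far1 (0.964). For Ythdc1 they were Ppp1r3e (0.968), Gprasp1 (0.959) and Nup54 (0.957), and for Ythdc2 Ikbip (0.971), Dnajb9 (0.957) and Reep3 (0.953). For the writers they were Odf2 (0.941), Brd1 (0.934) and Dnajb5 (0.925) with Mettl3, Lpcat2 (0.986), Adipor1 (0.978) and Rps6ka1 (0.978) with Mettl14, and Gmps (0.986), Ly96 (0.981) and Taf9 (0.972) with Wtap. For the erasers they were Bcl11a (0.979), Cast (0.974) and Ube2r2 (0.973) with Fto, and Mtarc2 (0.963), Serf1 (0.962) and Iah1 (0.952) with Alkbh5. Among the 10 genes themselves, r was highest for Mettl14 with Fto (0.93), followed by Ythdf3 with Ythdc1 (0.79) and Mettl14 with Alkbh5 (0.78). It was 0.27 for the writer pair Mettl3 and Mettl14, -0.20 for Ythdf1 and Ythdf2, and lowest for Ythdc1 and Mettl14 (-0.66).

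The other genes of the pathway were counted in the same averages, where 16.5% of all genes were higher and 18.2% lower with lysate, and 13.7% higher and 13.7% lower in KO-labelled cells. Of 10 accessory writers, 0 were higher and 4 lower with lysate, and 0 changed with genotype; Pcif1, which methylates the first transcribed adenosine, fell by 0.30 (-0.30 ± 0.064, limma adjusted p = 0.00284). The median change of this list was -0.051 with lysate and 0.0045 with genotype, beside -0.0092 and -0.0047 for all genes. Of 13 readers without a YTH domain, 1 was higher and 0 lower with lysate, and 0 changed with genotype (medians 0.037 and 0.047). That gene was Igf2bp2, which stabilises bound RNA. It rose from 7.37 and 7.20 to 8.54 and 8.18 in wild-type cells and from 7.61 and 7.49 to 8.23 and 8.22 in KO-labelled cells. The groups were far apart in both genotypes, with changes of 1.08 ± 0.11 (adjusted p = 4.11e-05) and 0.67 ± 0.11 (adjusted p = 0.00161); the difference of these effects, -0.40 ± 0.16, had an adjusted p of 0.523.

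Of 12 genes that supply or clear the methyl donor S-adenosylmethionine, 4 were higher and 2 lower with lysate, and 1 was higher and 0 lower with genotype (medians 0.12 and 0.00071). Adk, the kinase that removes adenosine, rose by 0.26 ± 0.064 with lysate (limma adjusted p = 0.00642), and Ahcyl2, a relative of the hydrolase of S-adenosylhomocysteine, fell by 0.40 (-0.40 ± 0.048, adjusted p = 4.89e-05). Shmt1, a serine hydroxymethyltransferase of the folate cycle, was higher in KO-labelled cells by 0.58 ± 0.075 (adjusted p = 9.88e-05). Of 22 deadenylation and decay genes, 2 were higher and 2 lower with lysate, and 2 were higher and 0 lower with genotype (medians -0.0080 and -0.0068). Cnot8, a deadenylase, fell by 0.24 with lysate (-0.24 ± 0.055), and Cnot10, another subunit of the same complex, was higher in KO-labelled cells by 0.26 ± 0.055. Of 13 eIF3 subunits, the initiation factor linked to YTHDF1, 1 was higher and 3 lower with lysate, and 0 changed with genotype (medians -0.030 and -0.051); Eif3j1 rose by 0.29 ± 0.070 and Eif3h fell by 0.22 (-0.22 ± 0.047).

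Of 7 nuclear partners of YTHDC1, 0 were higher and 1 lower with lysate, and 2 were higher and 0 lower with genotype (medians 0.063 and 0.087). Nxf1, the receptor for messenger RNA export, fell with lysate by 0.21 (-0.21 ± 0.046) and was higher in KO-labelled cells by 0.36 ± 0.046; the splicing factor Srsf7 was higher there by 0.28 ± 0.049. Of 7 other members of the ALKBH family, 0 were higher and 1 lower with lysate, and 2 were higher and 0 lower with genotype (medians -0.091 and -0.0082). These 2 were Alkbh1, by 0.34 ± 0.063, and Alkbh6, by 0.37 ± 0.081. The counts of these lists lay on both sides of the background shares, and the genotype calls stood beside marker changes in the same average, where 6 of 12 dendritic cell markers were higher and 1 lower, 5 of 7 macrophage markers lower and 9 of 9 neutrophil markers lower. In the lysate average, 7 of 12 dendritic cell markers were lower and 4 of 4 melanocyte markers higher. There, 2 of 7 macrophage markers were higher and 2 lower, and 1 of 9 neutrophil markers was higher and 3 lower.

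**Figure D4:**
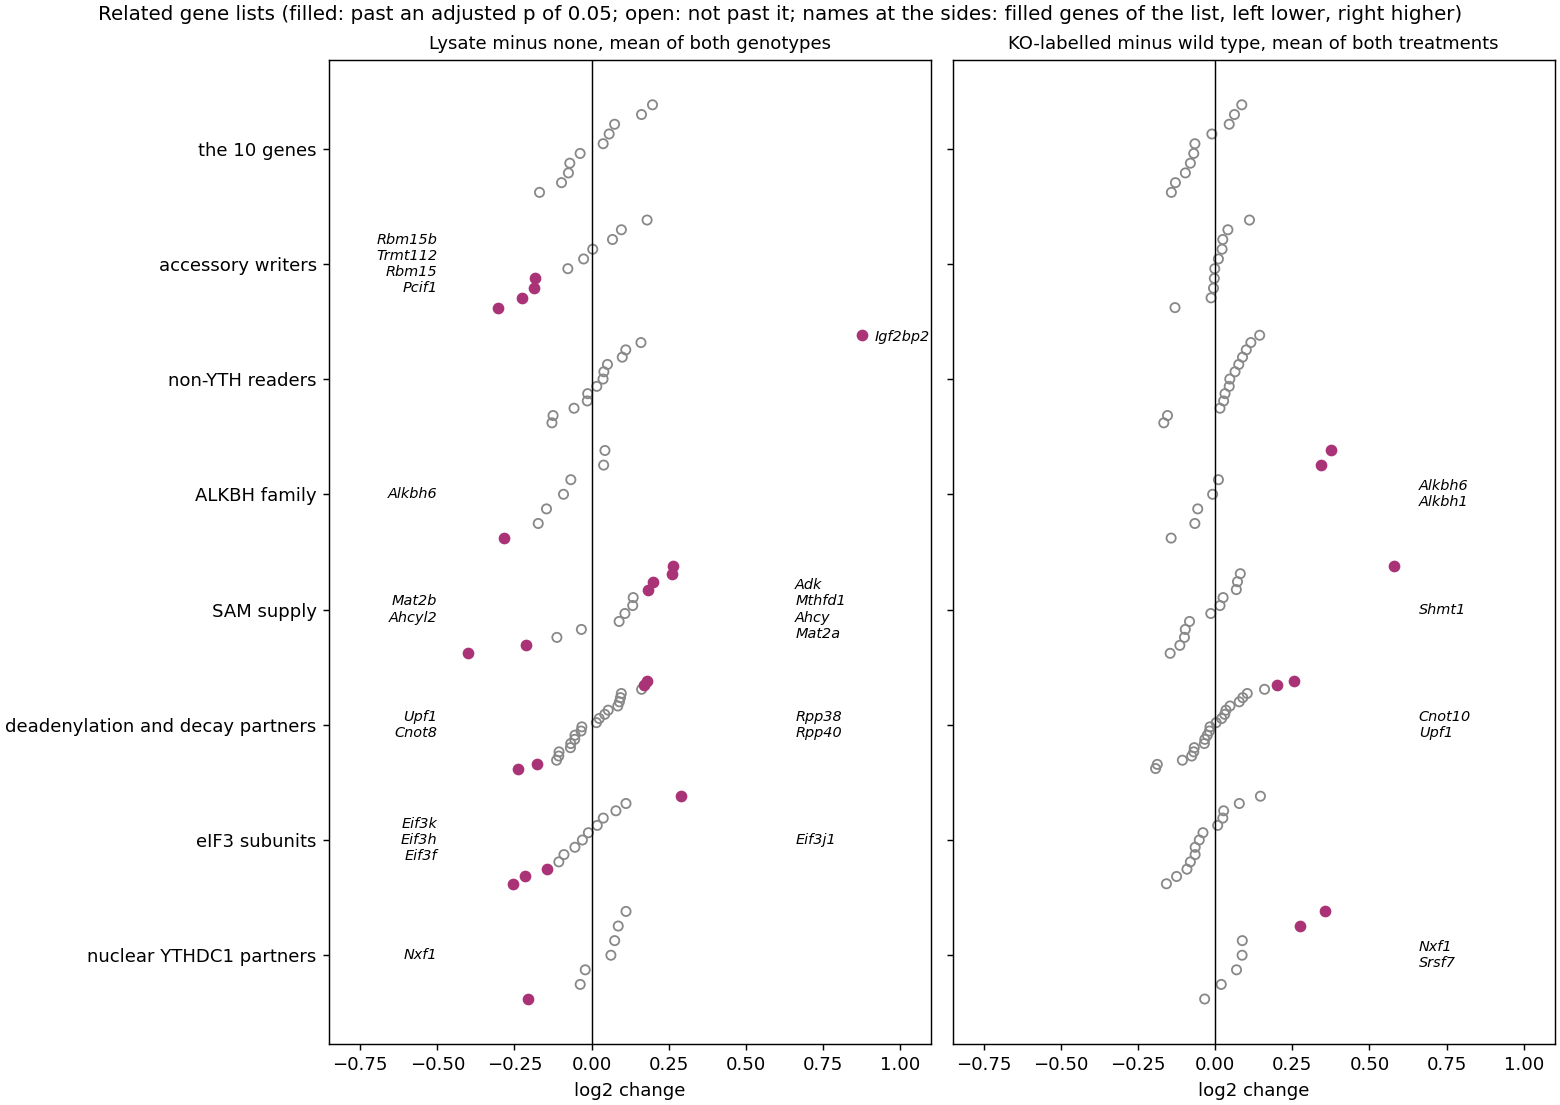
Log2 change of each gene of 8 lists, with the 10 genes on top, for lysate averaged over genotypes (left) and genotype averaged over treatments (right). Filled points passed an adjusted p of 0.05 and are named at the side, lower genes on the left and higher on the right. No point of the top list is filled, and Igf2bp2 stands alone at 0.88.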

How the data were processed

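RNA from 8 samples was sequenced with a stranded poly(A) kit, per the labels' protocols. The deposited log2 values per Entrez gene are read as the authors' regularized-log counts, from the table's name and from DESeq2, STAR, deepTools and mm9 in the submitters' processing notes; the sources used here give no versions, counting tool or strand setting. Symbols matched for 11744 of 11786 identifiers (GRCm38.p6), and transcript GC and length for 97.5% of genes tested; no coordinates are given, as builds differ. Groups and replicate numbers came from sample titles.

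Genes with a largest group mean of at least 4 (11785) were tested with limma 3.58.1 in R 4.3.3 (eBayes with trend, two-sided, Benjamini-Hochberg, 4 residual and 9.33 prior degrees of freedom), 8 libraries in 1 fit, and the script was tested on simulated data. Pooling 4 groups makes a noisy group widen the errors of all comparisons. All 10 genes are named; from each related list, up to 4 with the smallest p past the threshold could be, and the text keeps, after their values were seen, those called in the averages under every alternative. Members and lists were chosen with earlier results of these data known. Alternatives were median centring, quantile normalization, removal of GC and length trends, filters, other eBayes settings, replicate blocks, fits of only the groups compared, and leaving out each library.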

Additional observations from a re-analysis of the deposited data

How the results depend on the processing

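Of 1230 values of the 10 genes under alternatives, 1157 kept their direction and side of the threshold, 54 changed sign (none past the threshold), 19 passed it and 0 lost it; the causes were not tested. With median centring, Ythdf2 changed by 0.0014 with lysate in wild-type cells. With quantile normalization, Ythdf1 changed by -0.0036 with lysate in KO-labelled cells and Ythdc1 by 0.013 between genotypes with lysate. With the GC and length trend removed, lysate changes in wild-type cells were -0.11 (Wtap) and 0.0093 (Alkbh5), in KO-labelled cells -0.0092 (Ythdf3) and -0.074 (Wtap), and on average -0.013 (Ythdc1) and -0.093 (Wtap); genotype differences with lysate were 0.035 (Ythdf3) and 0.039 (Ythdc1), and differences of the lysate effects 0.026 (Mettl3) and 0.039 (Wtap). GC and length were known for 11486 of the genes tested. That setting called 1 of the 10 for lysate in KO-labelled cells (Ythdf2, -0.17, limma adjusted p = 0.0334), beside 3018 of all genes. For genotype without lysate it called 1 (Ythdc1), beside 3181 of all genes. For the genotype average it called 1 (Ythdc1, 0.088, adjusted p = 0.0434), beside 4451 of all genes. For the lysate average it called 3 (Ythdf2 -0.12, Mettl3 -0.17, Mettl14 -0.19). There 4090 of all genes were called as deposited, and at most 5128 under any alternative. The same setting widened the gap between replicates of Mettl14 in every group. The gaps of Ythdf3, Wtap and Ythdc2 narrowed in some groups and widened in others. Fitting only the groups compared called 1 for lysate in wild-type cells (Ythdf3).

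Same-numbered libraries were not treated as paired in the main fit. Their origin is not given, and their deviations, which correlated from -0.61 to 0.26, cannot show whether they were paired. The value between the untreated genotypes was -0.61. The replicate deviations of those groups thus shared a pattern over genes, while the main fit takes libraries as independent. The replicate block called 0 of the 10 in all 7 comparisons. A crossed block, added after seeing the data, called 1 for lysate in wild-type cells (Ythdf3), beside 3749 of all genes. For the lysate average it called 2 (Ythdf3, Mettl3), beside 5128 of all genes.

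Each library was left out in turn, and a lone library was assumed to vary like the other groups. Ythdf3, Ythdc2 and Mettl3 moved across the threshold in some of these fits, which leave 1 library in a group. Without wild-type lysate replicate 2, the lysate average was 0.29 for Ythdf3 and 0.26 for Ythdc2. Without KO-labelled alone replicate 2 it was 0.31 and 0.22. For Mettl3 it was -0.24 without wild-type lysate replicate 1. Changes of sign gave these ranges. Lysate in wild-type cells: Ythdf2 -0.030 to 0.0040, Ythdc2 -0.0064 to 0.37, Wtap -0.028 to 0.14, Alkbh5 -0.073 to 0.013. Lysate in KO-labelled cells: Ythdf1 -0.039 to 0.056, Ythdf3 -0.12 to 0.33, Ythdc1 -0.048 to 0.029, Wtap -0.029 to 0.066. Genotype without lysate: Ythdf1 -0.10 to 0.044, Ythdf2 -0.021 to 0.12, Ythdf3 -0.042 to 0.40, Ythdc2 -0.23 to 0.0095, Wtap -0.13 to 0.034. Genotype with lysate: Ythdf3 -0.20 to 0.19, Ythdc1 -0.035 to 0.026, Ythdc2 -0.34 to 0.039, Mettl3 -0.096 to 0.17. Difference of the lysate effects: Ythdf3 -0.41 to 0.035, Ythdc2 -0.23 to 0.15, Mettl3 -0.15 to 0.12, Mettl14 -0.047 to 0.017, Wtap -0.12 to 0.046, Alkbh5 -0.058 to 0.028. Averages: Wtap with lysate -0.0048 to 0.080, and with genotype Ythdf2 -0.045 to 0.023, Ythdf3 -0.025 to 0.20, Mettl3 -0.021 to 0.11.

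Over all genes, calls numbered 2534 for lysate in wild-type cells (1031 to 3749 over the alternatives), 1792 in KO-labelled cells (564 to 3018), 1915 for genotype without lysate (1174 to 3181), 1519 with it (193 without KO-labelled lysate replicate 1, to 2696), 13 for the difference of lysate effects (0 to 129; 1 with the replicate block), 4090 for the lysate average (2780 to 5128) and 3224 for the genotype average (1973 to 4451); the lowest counts came from leaving out 1 library and the highest from the GC and length trend or the crossed block. With no counts, what depth limits cannot be stated.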
